A study of Mus musculus with 39 samples.

Results

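The keratin and epidermal barrier genes were taken as the protein-coding genes on chromosomes 1 to 19 whose symbols are Krt followed by digits or start with Krtap, Lce or Sprr. The rule found 146 of 20807 genes, made up of 28 type I keratins (Krt222 counted among them), 25 type II keratins, 57 Krtap, 21 Lce and 15 Sprr genes. R1 mouse ES cells were studied, a line derived from early embryos that has not formed skin. The cells of both experiments carried no labelled genetic change or drug treatment. H3 wrapping-seq sorts fragments of H3 nucleosomes by length and gives nucleosome wrapping domains (NRDs), tight (TiNRD, positive index) or loose (LoNRD, negative index). BrdU labelling with sorting of S phase cells into 4 fractions gives replication timing (RT) domains, early (positive log2 ratio of early to late fractions) or late (negative).

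Keratins are the intermediate filament proteins of epithelial cells. A type I (acidic) keratin pairs with a type II (basic) keratin, such as Krt18 with Krt8 in simple epithelia, Krt14 with Krt5 in basal keratinocytes and Krt10 with Krt1 in the layers above. Keratin-associated proteins (Krtap) fill the matrix of the hair shaft, while small proline-rich (Sprr) and late cornified envelope (Lce) proteins are cross-linked into the barrier of the outermost epidermis. The Sprr and Lce genes belong to the epidermal differentiation complex.

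Each gene was given the domain that holds its midpoint. The 525 LoNRDs and 561 TiNRDs lay on a grid of 100 kb, and the 768 early and 849 late RT domains on one of 50 kb. Each of the 2 lists used here is a single set of calls without replicate values or read numbers, so the depth behind a call is unknown from them and they give no spread between replicates. No test was made, and tracks of single replicates were not analysed here. The members share domains, so a count of genes is not a count of independent observations.

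The genes fell into 7 clusters with neighbours under 500 kb apart, and no gene stood alone. The type I keratins other than Krt18 shared chromosome 11 with 23 Krtap genes, in a cluster of 50 genes from Krt222 to Krt42 that spanned 1037 kb. All 25 type II keratins and Krt18 lay on chromosome 15, from Krt80 to Krt18, in 685 kb. The 15 Sprr and 21 Lce genes shared 803 kb of chromosome 3, from Sprr2a1 to Lce1m. The other Krtap genes lay in a cluster of 24 on chromosome 16 (Krtap24-1 to Krtap11-1, 960 kb), 5 genes on chromosome 7 (Krtap5-2 to Krtap5-4), 3 on chromosome 10 (Krtap12-1 to Krtap10-10) and 2 on chromosome 1 (Krtap28-10 and Krtap28-13).

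**Figure D1:**
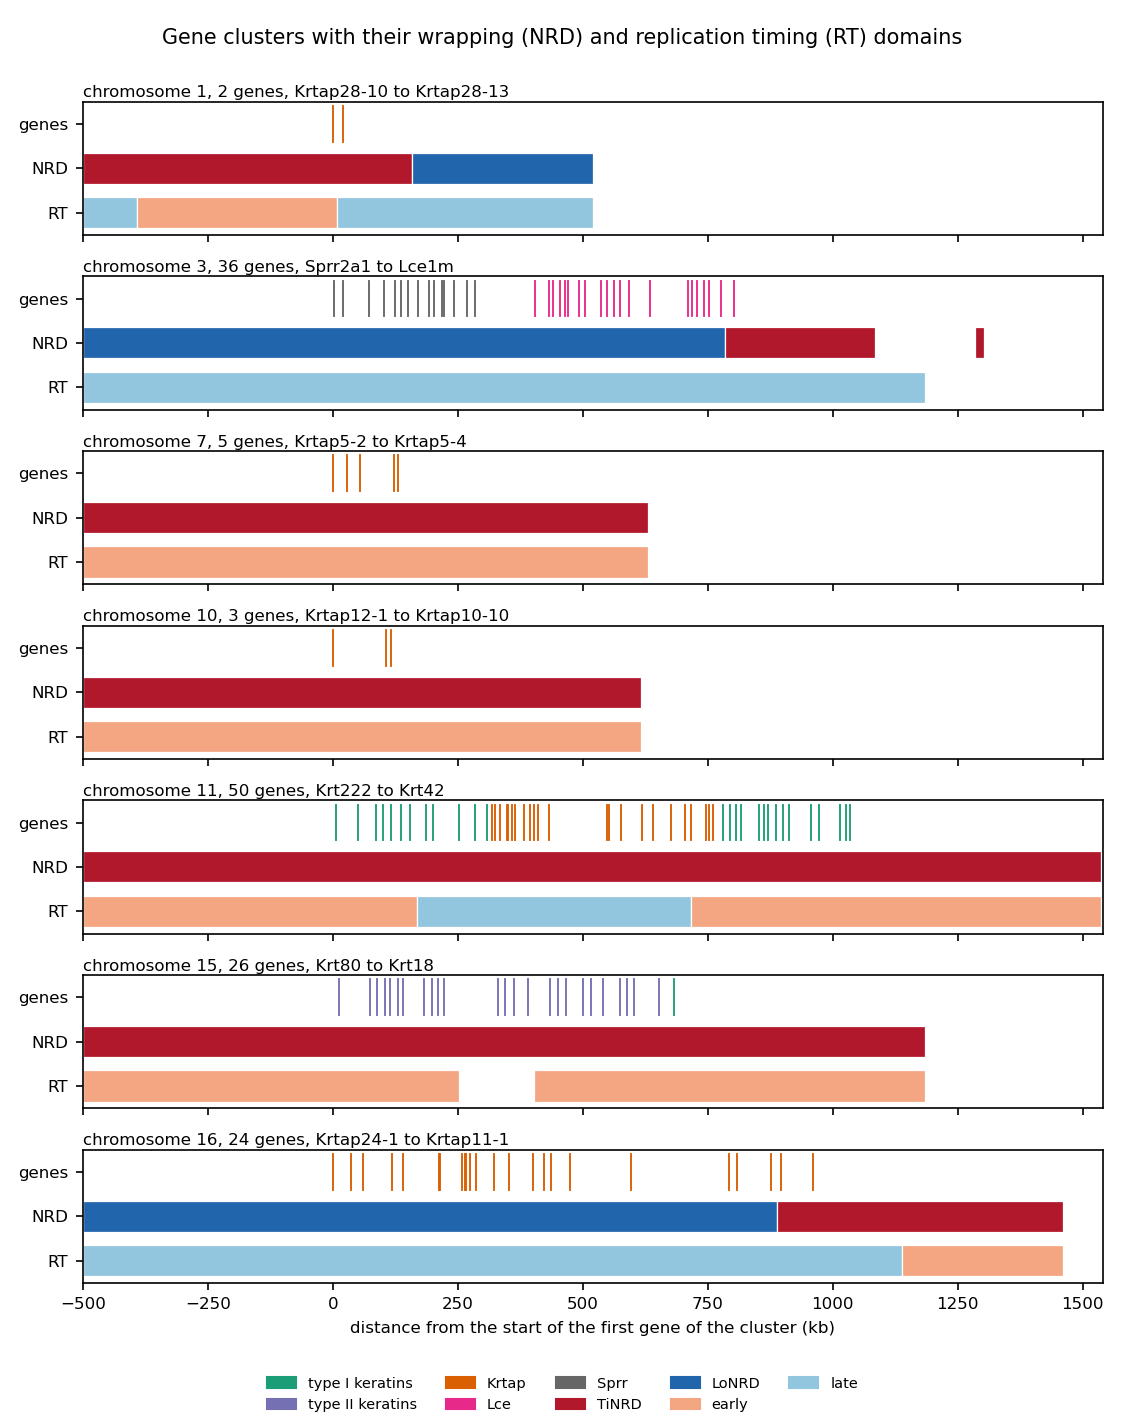
Map of the 7 clusters, with distance in kb from the start of the first gene on the horizontal axis, gene midpoints as ticks coloured by family, and bars for NRDs and RT domains drawn up to 500 kb beyond the first and last gene. The chromosome 11 cluster sat in 1 TiNRD but held a late RT domain of 550 kb, and the chromosome 15 cluster held a stretch of 150 kb without an RT domain.

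Keratin genes and the Sprr and Lce genes were found in opposite kinds of wrapping domain, with 1 exception. All 53 keratin genes lay in TiNRDs, while 35 of the 36 Sprr and Lce genes lay in LoNRDs. The Krtap genes were split, with 35 in TiNRDs and 22 in LoNRDs. In sum 89 members were in TiNRDs (61.0%, against 78.6% of all protein-coding genes) and 57 in LoNRDs (39.0%, against 20.3%). None lacked an NRD call (0 genes, against 1.09%). The direction against all genes turns with the unit counted. Taken by cluster, 5 of the 7 clusters were mostly TiNRD (71.4%), against 51.5% of the 620 clusters that all genes form at the same distance. The 620 are runs of any protein-coding genes and the 7 are runs of members only, so these units are unlike.

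Replication timing divided the families further. Early RT domains held 23 of 28 type I and 21 of 25 type II keratins, 12 of 57 Krtap genes, and no Lce or Sprr gene. Over all members 56 were early (38.4%, against 75.3% of all genes), 86 late (58.9%, against 21.4%) and 4 in no RT domain (2.74%, against 3.26%). These shares depend on how many genes each domain holds. Counted once per RT domain, 7 of the 11 domains with members were early (63.6%), against 47.5% of all 1617 domains of chromosomes 1 to 19. The 11 were picked for holding genes, while the 1617 count whatever their gene content, so these sets are unlike. Taken by cluster, 3 of 7 were mostly early (42.9%), against 51.6% of the clusters that all genes form. The cluster of chromosome 11 held 25 early and 25 late members, and that of chromosome 1 held 1 of each. Such ties were not counted as early. The direction against the background therefore differed between counts by gene and counts by domain, but these backgrounds were not alike. The direction by cluster rests on how ties are counted.

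A TiNRD with an early call, or a LoNRD with a late call, is called corresponding below. Both calls corresponded for 113 members (77.4%, against 82.9% of all genes). The early members were all in TiNRDs, so 56 members were TiNRD and early (38.4%, against 69.4%) and none was LoNRD and early (0 genes, against 5.33% of all genes). LoNRD and late held 57 members (39.0%, against 13.5%). TiNRD and late held 29 (19.9%, against 7.49%), and 25 of these 29 came from the same RT domain on chromosome 11.

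**Figure D2:**
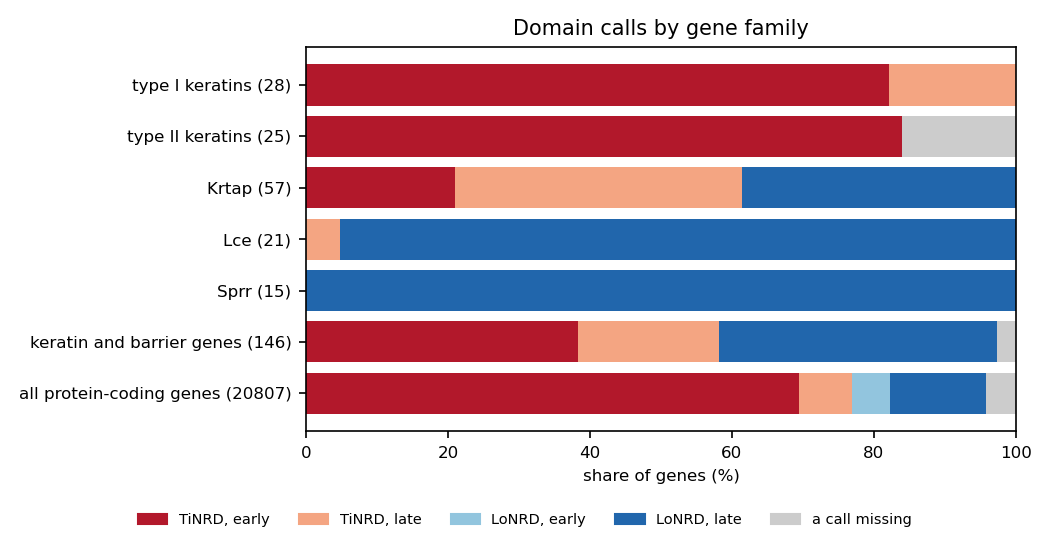
Share of genes in percent (horizontal axis) in each combination of NRD and RT call, for the 5 families, all 146 members and all 20807 protein-coding genes, with the number of genes in brackets and grey for genes without a call in one of the lists. All keratins were TiNRD and most were early, Lce and Sprr genes were LoNRD and late except Lce1m, and Krtap genes took 3 of the 4 combinations.

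On chromosome 11 a short late replicating segment cut the type I keratin and Krtap cluster into 3 blocks. The whole cluster lay in a TiNRD of 11200 kb (chr11:93500001-104700000, mm10) with a wrapping index of 1.10, rank 31 of 561 TiNRDs. The proximal block, 7 genes from Krt222 to Krt10, lay in an early domain with an RT value of 1.76 (log2), rank 3 of 768 early domains. It held the inner root sheath keratins Krt25, Krt26, Krt27 and Krt28 beside Krt24, Krt222 and Krt10.

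The middle block of 25 genes lay in a late domain of 550 kb (chr11:99400001-99950000) with an RT value of -0.72, rank 423 of 849. It held 5 type I keratins, namely Krt12 of the corneal epithelium, Krt20 of the gut lining, Krt23 and the hair keratins Krt39 and Krt40, followed by 20 Krtap genes from Krtap3-3 to Krtap9-5. The 18 other protein-coding genes of that domain also lay between members, and all bore provisional Gm or Rik symbols. The members therefore made up 58.1% of its 43 genes.

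The distal block of 18 genes lay in an early domain with an RT value of 1.70, rank 7 of 768. It opened with Krtap29-1, Krtap16-1 and Krtap17-1 and went on with the hair keratins Krt33a, Krt33b, Krt34, Krt31, Krt32, Krt35 and Krt36. The epidermal and epithelial keratins Krt13, Krt15, Krt19, Krt9, Krt14, Krt16, Krt17 and Krt42 closed it. Hair shaft genes thus stood on both sides of the distal border, with 20 Krtap genes and the hair keratins Krt39 and Krt40 late, and 3 Krtap genes and the other 7 hair keratins early.

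Both borders fell between genes. At the proximal border 26.3 kb separated Krt10 (early) from Krt12 (late), and the midpoint of Krt10 lay 12.7 kb from the border. At the distal border 28.5 kb separated Krtap9-5 (late) from Krtap29-1 (early), and the midpoint of Krtap9-5 lay only 0.987 kb from the border, far less than the 50 kb grid on which borders are placed. The call of Krtap9-5 is therefore the least certain in the block. The RT value dropped by 2.48 at the proximal border and rose by 2.42 at the distal one (log2), ranks 9 and 16 of 1177 changes of kind between touching domains, whose median size was 1.39.

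The promoters of the 4 genes at these borders are shown because each pair lies less than 30 kb apart and differs in RT call. The sequences are RefSeq's for GRCm38.p6 (mm10), from 100 bases before to 20 bases after the annotated start, 5′ to 3′ on the gene's strand. Capitals mark TATAAA, the core of the TATA box, searched on both strands.
Krt10 (chr11:99389345-99389464, minus strand): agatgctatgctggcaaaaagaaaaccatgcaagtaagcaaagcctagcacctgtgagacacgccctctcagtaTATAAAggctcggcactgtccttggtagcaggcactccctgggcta
Krt12 (chr11:99422240-99422359, minus strand): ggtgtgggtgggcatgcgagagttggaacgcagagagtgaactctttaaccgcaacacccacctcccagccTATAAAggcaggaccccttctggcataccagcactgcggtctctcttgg
Krtap9-5 (chr11:99948324-99948443, plus strand): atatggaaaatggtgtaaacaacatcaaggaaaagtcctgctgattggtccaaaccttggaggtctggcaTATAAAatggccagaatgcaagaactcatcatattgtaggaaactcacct
Krtap29-1 (chr11:99979081-99979200, minus strand): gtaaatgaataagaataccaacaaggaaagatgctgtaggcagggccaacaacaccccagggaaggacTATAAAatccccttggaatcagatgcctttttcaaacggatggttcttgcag
All 4 held TATAAA, starting 26 bases before the start in Krt10, 29 in Krt12, 30 in Krtap9-5 and 32 in Krtap29-1. The motif was therefore present on either side of both borders. A match is a description of letters, not evidence of a bound factor.

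Late domains between early ones were common in the list, and this one ranked highest in 2 of 4 measures. Of the 849 late domains 407 touched early domains at both ends, and 115 of these lay wholly inside 1 TiNRD. Among those 115 the chromosome 11 domain had the most protein-coding genes (43, median 2) and the highest value for the lower of its flanking early domains. Its length ranked 60 (550 kb, median 600 kb), and the size of its own value ranked 27 (-0.72, median -0.48).

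A/T content was higher in the late segment than in most early windows in and around the cluster. In 50 kb windows over the cluster and 500 kb on either side, the 11 late windows had a median A/T content of 57.4% (55.5% to 59.2%) and the 31 early windows 52.1% (47.7% to 57.2%). Most of the early windows lay in the flanks outside the cluster. The ranges overlapped, since windows around the proximal block and the first early window past the distal border (55.9%) were also A/T-rich. Measured over 100 kb around each gene, the late members had a median of 57.7% (55.7% to 58.2%) and the early members 54.4% (50.9% to 56.2%). At the proximal border the values were nearly level, 55.4% at Krt10 and 55.7% at Krt12. The late domain as a whole was 57.6% A/T, below the median of late domains (59.9%), while its flanking early domains were at 52.6% and 52.7%, below the median of early domains (56.7%). The part of base composition in the RT calls was not tested.

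**Figure D3:**
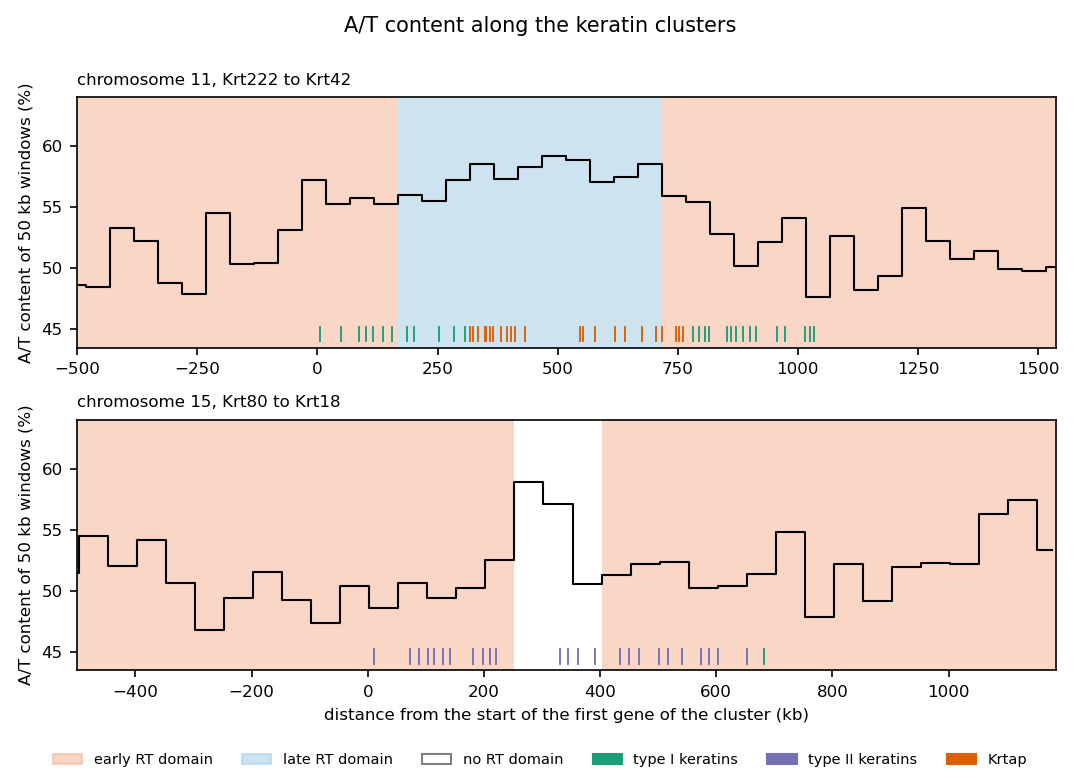
A/T content in percent of 50 kb windows (vertical axis) against distance in kb from the first gene for the chromosome 11 and chromosome 15 clusters, with shading for early, late and absent RT domains and gene midpoints as ticks at the foot. The line stayed between 55.5% and 59.2% across the late segment of chromosome 11 and reached 58.9% in the stretch of chromosome 15 without an RT domain.

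On chromosome 15 the type II keratins and Krt18 shared a tight and early setting, with no late member. All 26 genes lay in a TiNRD of 10800 kb (chr15:92800001-103600000) with an index of 0.85, rank 91 of 561. Of these, 11 genes from Krt80 to Krt75, among them the hair keratins Krt81, Krt83 and Krt86 and the simple epithelial Krt7, lay in an early domain with an RT value of 1.41 (rank 38 of 768). Another 11, from Krt72 to Krt18, lay in an early domain with a value of 1.53 (rank 25).

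Between these early domains Krt6b, Krt6a, Krt5 and Krt71 lay in a stretch of 150 kb (chr15:101600001-101750000) that the RT list assigns to no domain. Krt6a and Krt6b are induced in wounded and hyperproliferative epidermis, Krt5 marks basal keratinocytes and Krt71 is a root sheath keratin. The list held 421 such gaps, 136 of them between early domains, with a median length of 200 kb over all gaps. The lack of a call does not show late replication, since no values inside gaps were in the list used here. The midpoints of Krt5 and Krt71 lay 40.0 and 11.5 kb from the next early domain. Both distances are under the 50 kb grid, so their missing calls are less certain.

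The gap was more A/T-rich on its proximal side. The A/T content over 100 kb was 55.9% at Krt6b, 54.4% at Krt6a, 53.1% at Krt5 and 50.9% at Krt71, against a median of 50.9% (49.7% to 53.0%) for the 22 early members of the cluster. The 3 windows of 50 kb inside the gap ranged from 50.6% to 58.9%. The gap also held 2 other genes, Gm5414 (58.5%) and Gm5478 (58.2%).

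The partner pairs show how the calls fall across the type I and type II clusters. Krt8 and Krt18, whose genes are neighbours on chromosome 15, shared a TiNRD and an early domain. For Krt5 and Krt14 the NRD call was TiNRD for both genes, but Krt14 was early (1.70) and Krt5 had no RT call. With Krt5 only 40.0 kb from an early domain, under the 50 kb grid, that difference is uncertain. Krt1 (1.53) and Krt10 (1.76) were both TiNRD and early. Krt10 lay 12.7 kb from the late segment of chromosome 11, whereas Krt1 had no late domain in its cluster.

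The promoter of Krt18 is shown as the contrast to the TATAAA promoters above, in the same window and source. It held no TATAAA on either strand and no capitals are therefore printed.
Krt18 (chr15:102028116-102028235, plus strand): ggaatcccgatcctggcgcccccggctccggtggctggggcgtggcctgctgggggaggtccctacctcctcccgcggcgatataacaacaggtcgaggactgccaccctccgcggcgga
This window of 120 bases held 12 CpG dinucleotides and was 28.3% A/T, whereas the windows of Krt10 and Krt12 held 2 and 4 CpG and were 49.2% and 42.5% A/T.

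On chromosome 3 the Sprr and Lce genes filled a loose, late replicating segment. The 15 Sprr genes, from Sprr2a1 to Sprr4, and 20 of 21 Lce genes lay in a LoNRD of 2000 kb (chr3:91000001-93000000) with an index of -0.58, rank 194 of 525 LoNRDs. They were 35 of its 48 genes (72.9%). All 36 genes lay in a late RT domain of 2600 kb (chr3:90800001-93400000) with a value of -0.72, rank 431 of 849, and were 36 of its 56 genes (64.3%).

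The exception in wrapping was Lce1m, the last gene of the row. It lay 18.4 kb past the border at 93000000, in a TiNRD of only 300 kb with an index of 0.02, rank 559 of 561. Lce3f, on the other side and 24.4 kb from Lce1m, was the member nearest to an NRD border (7.17 kb). With a grid of 100 kb and an index this close to 0, the different calls of Lce3f and Lce1m say little about a difference between them. Sprr2a1 and Sprr2a2 have overlapping gene models, and both received the same calls.

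The promoters of Lce3f and Lce1m are shown as the pair at that border, and that of Sprr2b as the first Sprr gene in genome order with TATAAA near its start, with capitals again for TATAAA.
Lce3f (chr3:92992117-92992236, plus strand): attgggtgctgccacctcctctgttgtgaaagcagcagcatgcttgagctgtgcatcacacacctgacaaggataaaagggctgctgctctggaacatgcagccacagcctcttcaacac
Lce1m (chr3:93019042-93019161, minus strand): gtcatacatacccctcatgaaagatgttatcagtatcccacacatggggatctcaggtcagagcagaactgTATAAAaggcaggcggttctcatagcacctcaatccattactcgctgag
Sprr2b (chr3:92316605-92316724, plus strand): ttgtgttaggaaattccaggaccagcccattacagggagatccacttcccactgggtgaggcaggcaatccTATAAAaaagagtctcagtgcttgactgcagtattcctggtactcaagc
Lce1m and Sprr2b held TATAAA 29 bases before the start, and Lce3f held none.

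The other genes of the epidermal differentiation complex did not all share the calls of Sprr and Lce. The list of 27 held the cornified envelope precursors Lor and Ivl, the filaggrin family and the S100a genes of calcium-binding proteins, and was chosen with earlier results known. Lor, Ivl, Kprp, Smcp and Pglyrp3 were LoNRD and late like the Sprr genes. Flg, Flg2, Crnn and Crct1 were TiNRD and late, in the same weak TiNRD as Lce1m. Another 12, namely Pglyrp4 and 11 S100a genes, were TiNRD and early in the domains before the cluster (index 0.96, RT value 1.58). Hrnr, Rptn, Tchh and Tchhl1 had no NRD call, and Tchh, Tchhl1, S100a10 and S100a11 had no RT call. In sum 18 of 27 were in TiNRDs (66.7%, against 78.6% of all genes) and 12 of 27 were early (44.4%, against 75.3%). The change in RT value from the S100a side to the Sprr and Lce side ranked 34 of 1177.

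The calls of the Krtap genes differed between clusters and within some of them. On chromosome 16, 22 of 24 Krtap genes lay in a LoNRD of 1600 kb (chr16:87900001-89500000) with an index of -0.61, rank 178 of 525, where they were 22 of 39 genes. All 24 lay in a late RT domain of 2050 kb (chr16:87700001-89750000) with a value of -0.98, rank 94 of 849, the latest among the domains that hold members. Krtap7-1 and Krtap11-1, at the distal end, lay 8.01 and 70.7 kb inside a TiNRD of 8500 kb (index 0.94, rank 66 of 561) and yet in the late domain. Both distances are under the 100 kb grid of the NRD list, so these TiNRD calls are less certain. The NRD border fell between Krtap8-1 and Krtap7-1, which were 19.8 kb apart, and the RT border lay another 250 kb further on.

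The small Krtap clusters of chromosomes 7 and 10 were TiNRD and early throughout. The 5 Krtap5 genes lay in a TiNRD of 20700 kb (index 1.05, rank 38) and an early domain with a value of 1.07. The 3 genes of chromosome 10, Krtap12-1, Krtap10-4 and Krtap10-10, lay in a TiNRD with an index of 1.19 (rank 19) and an early domain with a value of 1.25.

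On chromosome 1 the 2 Krtap28 genes lay in 1 TiNRD (index 0.27, rank 414) but on either side of an RT border at 83050000. Krtap28-10 was early (0.46) and Krtap28-13 late (-0.79). The midpoint of Krtap28-13 was 11.4 kb from the border and that of Krtap28-10 nearer still, well under the 50 kb grid. Krtap genes were therefore early in 12 cases and late in 45, and the late ones came from 3 domains.

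By their pooled medians the members lay closer to RT borders and farther from NRD borders than all genes, but this did not hold for every family. The median distance from a member to the nearest RT border was 247 kb, against 493 kb for all genes, and 34 members lay within 100 kb of one (23.3%, against 12.1%). The median distance to the nearest NRD border was 1769 kb, against 898 kb, and 12 members lay within 100 kb of one (8.22%, against 9.1%). Keratins had medians of 117 kb to an RT border and 4434 kb to an NRD border, and Krtap genes 330 and 1179 kb. Lce genes (622 and 222 kb) and Sprr genes (1013 and 613 kb) went the other way. So did the Krtap cluster of chromosome 16 (836 and 586 kb). Krt222 was the farthest from an NRD border, at 5462 kb. NRD borders crossed 2 of the 7 clusters, those of chromosomes 3 and 16, while RT domains of both kinds met in those of chromosomes 1 and 11. None of the 7 NRD and RT borders inside clusters fell within a protein-coding gene.

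The clusters of chromosomes 3, 16, 15, 10 and 7 differed in base composition in the way their calls did. The median A/T content over 100 kb was 60.9% on chromosome 3 and 61.4% on chromosome 16, against 61.2% for all genes that were LoNRD and late. It was 51.1% on chromosome 15, 50.6% on chromosome 10 and 54.1% on chromosome 7, against 53.5% for all genes that were TiNRD and early. The clusters of chromosomes 1 and 11 held both early and late members. On chromosome 1 the early Krtap28-10 (57.4%) and the late Krtap28-13 (58.0%) were nearly level, and the chromosome 11 cluster had a median of 56.0%. The 29 TiNRD and late members had a median of 57.7%, as did all 1558 genes with those calls. Over all members the median was 57.7%, against 55.5% for all genes.

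**Figure D4:**
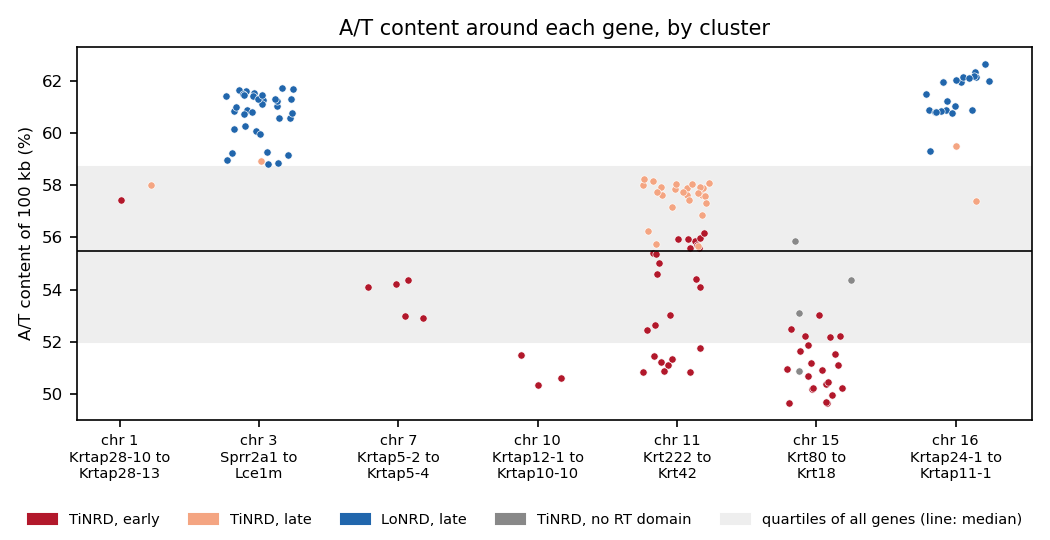
A/T content in percent of 100 kb around each member (vertical axis) by cluster (horizontal axis, points spread sideways for legibility), coloured by the NRD and RT calls, with the quartiles and median of all protein-coding genes as band and line. LoNRD and late members lay at or above 58.8%, TiNRD and early members at or below 57.4%, and TiNRD and late members between 55.7% and 59.5%.

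Members were crowded together, but mainly by their own relatives. The median member had 43 other protein-coding genes within 500 kb, against 16 for all genes. Leaving members out, 16 remained. The chromosome 11 cluster was the densest, with a median of 59, and 23.5 without members.

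Promoters of the members were poor in CpG, a base pair step that is frequent at the starts of broadly expressed genes. RefSeq promoters of 300 bases (250 before to 50 after the start) matched 121 of the 146 members. The starts of Sprr2a2, Krt14, Krt7 and Krtap15 lay over 1000 bases from the end of the gene model and are less certain. The ratio of observed to expected CpG (the CpG count times the length, divided by the product of the C and G counts) had a median of 0.16, against 0.60 for 16457 genes with a promoter. It exceeded 0.6 in 3 members, Krt28 (0.78), Krt7 (0.64) and Krt18 (0.60), or 2.48%, against 49.8% of all promoters. Family medians fell from 0.29 in type I and 0.25 in type II keratins to 0.17 in Krtap, 0.08 in Sprr and 0.06 in Lce genes.

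TATAAA was found on either strand in 75 of 121 promoters (62.0%, against 13.5% of all). On the gene's strand and starting 40 to 20 bases before the start, it was found in 55 (45.5%, against 2.9%). By family this second count was 31 of 51 Krtap, 9 of 14 Sprr, 10 of 21 type I, 3 of 15 type II and 2 of 20 Lce promoters. In the chromosome 11 cluster it was 18 of 23 late and 9 of 18 early members, and the early block holds more keratins and fewer Krtap genes. Promoter A/T content had a median of 54.7% in members, against 43.3% in all promoters. In the chromosome 11 cluster the median was 58.7% for late and 54.2% for early members. The part of A/T content in the motif counts was not tested. TGANTCA, where N is any base, is a loose form of the AP-1 site that many keratinocyte genes carry. It was found on either strand in 9 of 14 Sprr promoters (64.3%), 10 of 51 Krtap and 1 of 21 type I promoters. No type II or Lce promoter held TGANTCA. Its share was 16.5% of the 121 member promoters and 7.12% of all promoters, and a TGANTCA match cannot overlap a TATAAA match. Absence of a match says only that the letters are not in the window.

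**Figure D5:**
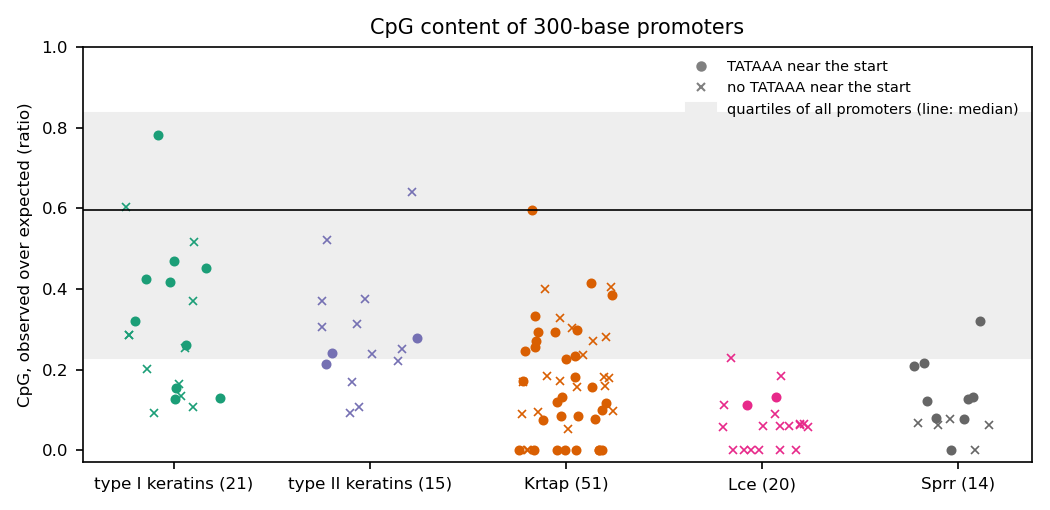
Ratio of observed to expected CpG (vertical axis) in the 300-base promoters of the members, by family with the number of promoters in brackets (points spread sideways for legibility), with filled circles for promoters with TATAAA near the start, crosses for the others, and the quartiles and median of all promoters as band and line. Of 121 promoters, only those of Krt28, Krt7 and Krt18 exceeded 0.6.

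Most other genes for the envelope and for intermediate filaments were TiNRD and early, as were most genes of the annotation (69.4%). Of 23 genes for envelope cross-linking, lipids, junctions and their regulators, 20 were in TiNRDs (87.0%, against 78.6% of all genes) and 17 in early domains (73.9%, against 75.3%), among them the skin lipoxygenases Alox12b and Aloxe3. Casp14, a protease of cornification, and Cers3, which makes skin ceramides, were TiNRD and late, and Tgm3 had no RT call. The midpoint of Casp14 lay 15.1 kb from an RT border, under the 50 kb grid. Abca12, Cldn1 and Trp63 were LoNRD and late. Of 14 genes for other intermediate filament proteins, 13 were TiNRD and early (92.9%, against 69.4% of all genes), such as Bfsp1, Bfsp2 and Des. Vim was LoNRD and late, with an RT value of only -0.13. Both lists were chosen with earlier results known.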

How the data were processed

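H3 wrapping-seq (4 libraries) and S1 to S4 replication timing (8 libraries) were labelled with 2 replicates each. Other libraries of the series were not used here. The authors trimmed reads with cutadapt 4.3, aligned them to mm10 with Bowtie2 2.5.1 and filtered them with Picard and SAMtools. bedtools 2.30.0 is also named in the submitters' processing notes. The NRD value deposited by the authors is a score, from smoothed 100 kb bins of the wrapping index at 140 bp. The RT value deposited by the authors is a log2 ratio of early to late fractions in 50 kb windows, quantile normalized. Domains of both lists were called with HOMER, and smoothing limits how closely a border is placed. Whether replicates were pooled is not given in the sources used here. Values served for sign, for rank and for the size of the change between touching domains.

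Genes were protein-coding genes of the GENCODE annotation for GRCm38 on chromosomes 1 to 19. The RT list reached the exact final base of 18 of these 19 chromosomes in that build. Shares were set beside those of all genes without a test. A/T content and promoters came from RefSeq's GRCm38.p6. Calculations used Python 3.11.15, numpy 2.4.6, scipy 1.17.1 and matplotlib 3.10.9, and were tested on simulated data. Alternatives were another gene position, counting unit, cluster distance, border distance, domain choice and annotation.

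The members, lists and tests were chosen with earlier results of these data known. Named were the first and last gene of a cluster, genes whose call differed from their cluster's or was missing, genes beside borders, those nearest to and farthest from an NRD border, 3 partner pairs, and from other lists the genes whose calls did not correspond and up to 3 others. Members of blocks, genes with high CpG or uncertain starts, Sprr2b, Cldn1, Trp63, Vim and epidermal differentiation genes sharing a call were named after their values were seen. Protein composition was not analysed here.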

Additional observations from a re-analysis of the deposited data

How the results depend on the processing

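Each share was recomputed under the alternatives, 67 values for 18 results, of which 56 stayed within the 95% binomial interval of the reported share or, for counts, within 1.5 times the count. The other 11 changed with the unit or set counted. The interval treats genes as independent, which members sharing domains are not, so it is only a yardstick. Most alternatives recount the same genes or a part of them, so little change could arise. By the rule for counts, 3 clusters with any RT border inside, in place of 2, stayed. The members' TiNRD share (61.0%) was 71.4% by cluster and 77.8% by domain. Their early share (38.4%) was 63.6% by domain and 49.4% without Krtap genes, and the corresponding share (77.4%) was 69.2% by domain and 88.8% without Krtap genes. With members at least 100 kb from a border, type II keratins were 100% early and Lce genes 0.0% TiNRD. The TiNRD share of all genes (78.6%) was 79.4% on the chromosomes with members, a small change outside the narrow interval that 20807 genes give. Counted by clusters of all genes, it was 51.5% and the early share 51.6%. By cluster the members' TiNRD share thus lay above that of all genes, though clusters of members and of all genes are unlike units. These shifts follow from the construction of each count. Clusters with equal numbers of both kinds were not counted as early. RefSeq gene models, an alternative chosen after seeing the data, gave 61.1%, 38.2% and 77.1% for TiNRD, early and corresponding. No paired analysis was possible because the results come from no test and the 2 lists used here hold no replicate values. Tracks of single replicates were not analysed here.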
